A study of Mus musculus with 10 samples.

Results

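Genes of retinoic acid synthesis and response were followed in whole testes of 10 day old mice. Out of 12393 genes that a probe set of the array names alone, 9 were chosen by name. These are Rbp4, Rdh10, Rdh11, Aldh1a1, Aldh1a2, Aldh1a7, Crabp1, Crabp2 and Stra8. They are covered by 10 probe sets, a pair for Rdh11 and 1 for each of the others. SCARKO mice lack the androgen response in Sertoli cells, the somatic cells that nurse the germ cells within the seminiferous tubule. The control mice are labelled AMHCre, a transgene in which the promoter of the anti-Müllerian hormone gene drives Cre recombinase in Sertoli cells; the labels give no further allele for either group. Each array held RNA pooled from 1 testis of each of 3 littermates, and 5 SCARKO pools and 5 control pools were made as littermate pairs numbered 1 to 5.

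Retinoic acid is the active derivative of vitamin A. Retinol travels in blood bound to RBP4, is oxidized in cells to retinal by retinol dehydrogenases, and is oxidized further to retinoic acid by retinal dehydrogenases. Retinoic acid binds cellular carrier proteins and acts through nuclear receptors on DNA. In the testis it drives spermatogonia to differentiate and germ cells to enter meiosis, for which Stra8 is the best known target gene. Day 10 falls in the first wave of spermatogenesis, when the most advanced germ cells are in meiotic prophase.

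Values are Affymetrix signals on a linear scale, set by the authors to a common trimmed mean, and a signal of a probe set is not compared with that of another. The median signal per array lay between 36.4 and 37.6. The titles put the arrays in groups, while the descriptions state the opposite genotype for 8 of the 10 arrays, those of pairs 1 to 4. Rhox5, an androgen-regulated homeobox gene of Sertoli cells, ranged from 7.9 to 12.7 in the libraries titled SCARKO and from 86.6 to 241.4 in those titled control, and was lower in SCARKO in all 5 pairs, pair 5 included, on which both labels agree. Every direction below rests on the titles. By their mean over the 10 arrays, all 10 Sertoli markers examined were above the level below which probe sets were left out (19.3). Amh was near that level, at 14.1 to 20.9 in SCARKO pools and 20.0 to 44.9 in control pools. Of 5 listed epididymal markers, the 4 on the array reached at most 9.9 on any array. Their level in epididymis of this age was not measured.

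Both genes that changed encode aldehyde dehydrogenases. Aldh1a2 was 1.18-fold and Aldh1a7 1.45-fold lower in SCARKO pools, while Aldh1a1, Rdh10 and Crabp1 had small positive differences that did not pass the test. Of the 9 genes, 8 were bright enough to be tested, and Crabp2 was not. Of these 8, 2 fell, 0 rose and 6 did not pass an adjusted p of 0.05 in limma's paired fit over the whole table, and 5 had an unadjusted p under 0.05. Among all 7973 genes tested, 5.69% passed in either direction and 3.52% fell. Of the 13576 probe sets in the same fit, 2833 had an unadjusted p under 0.05. The 9 genes were chosen with these results known, so the counts are a description. The median log2 fold change, SCARKO minus control, was 0.06 over the 8 and 0.015 over all genes tested. The ranges of the groups overlapped for all 9 genes, against 5.26% of all genes tested whose groups did not overlap. For the brighter Rdh11 probe set they met only at a tied value of 49.2.

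**Figure D1:**
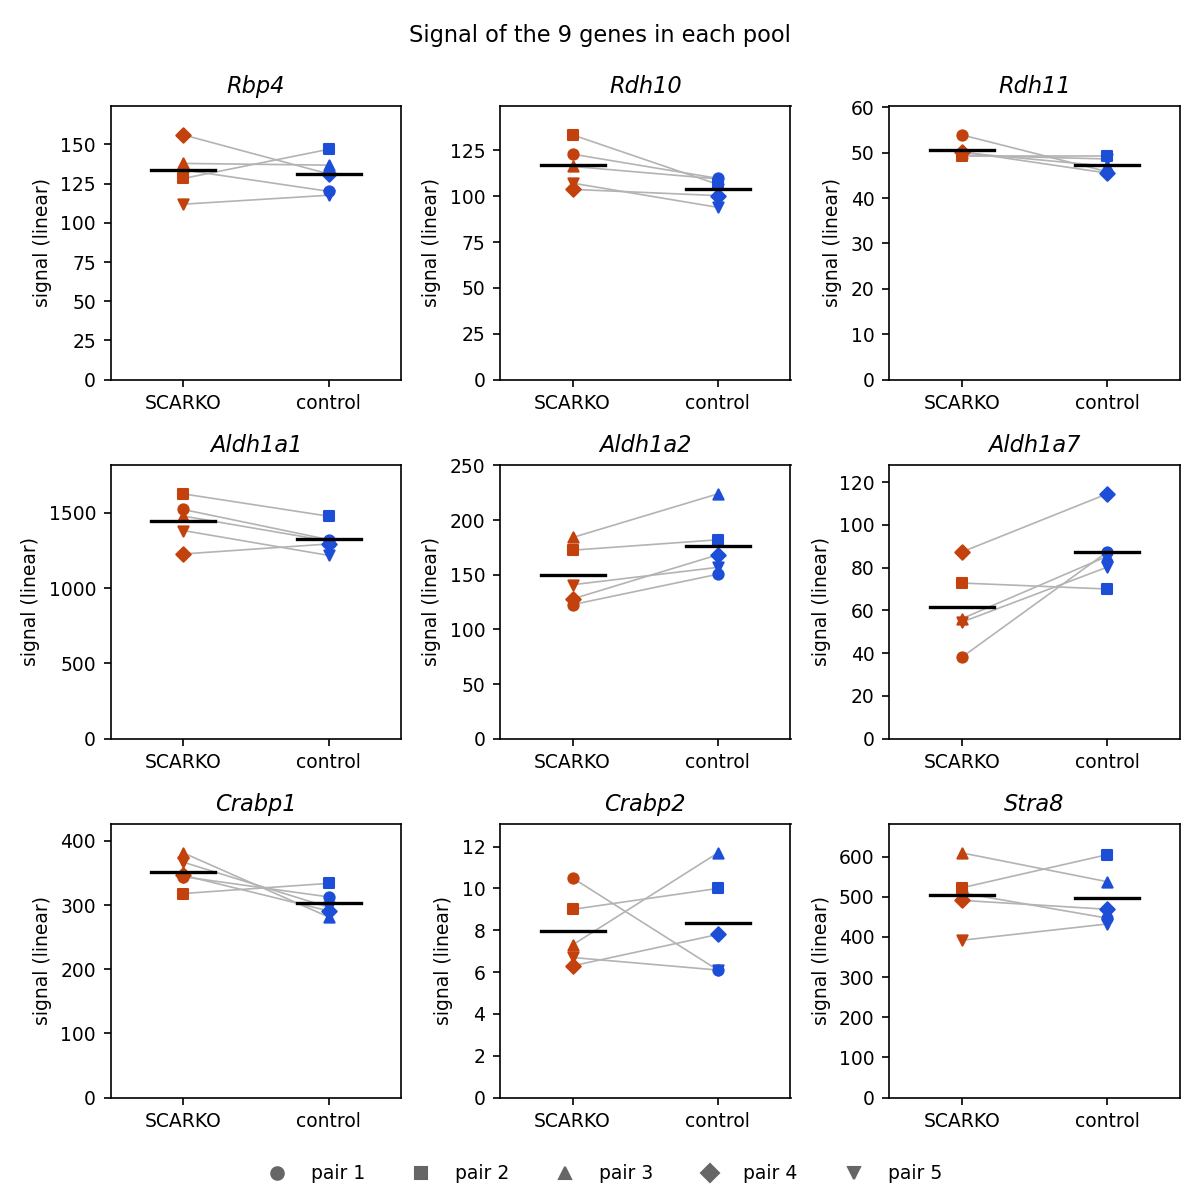
Signal on a linear scale (vertical axes start at 0) of the 9 genes in 5 SCARKO pools and 5 control pools, with lines joining littermate pairs, a marker shape for each pair and a black bar for the group mean; Rdh11 is shown by its brighter probe set. Aldh1a2 was lower in the SCARKO pool of every pair and Rdh10 higher in every pair. The groups overlapped in all 9 panels, in that of Rdh11 only at a tied value of 49.2.

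Aldh1a2 encodes the retinal dehydrogenase RALDH2, which is found in germ cells of the mouse testis from meiotic prophase on. Its signal in SCARKO pools of pairs 1 to 5 was 122.6, 172.4, 184.0, 127.8 and 140.8, against 150.4, 181.9, 223.9, 168.2 and 156.7 in the control pools. Each SCARKO pool lay under its own littermate control, although the pools of pairs 2 and 3 were high in both groups and the groups overlapped. This came to a log2 fold change of -0.24 (SE 0.06, 95% CI -0.37 to -0.11, limma adjusted p = 0.045). Within pairs the log2 ratio lay between -0.40 in pair 4 and -0.08 in pair 2. The call needed the pairing and most of the pairs: the adjusted p was 0.38 without the pair as a block, and 0.12, 0.15, 0.13 and 0.085 without pair 1, 3, 4 or 5. It was 0.031 without pair 2.

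Markers of meiotic germ cells, like Aldh1a2, had lower values in SCARKO pools when summed. The 7 of 8 listed markers that were tested were all bright, with a lowest mean signal of 89.7 and none at 0, and their summed signal ranged from 1602 to 2104 in SCARKO pools and from 1927 to 2846 in control pools, lower in SCARKO in all 5 pairs. In pair 4, the sum was 2104.5 in the SCARKO pool and 2133.7 in the control pool. In pair 2, it was 1755.2 in the SCARKO pool and 2377.1 in the control pool. Such a sum weighs bright markers most, and single markers differed. In pairs 4 and 2 the log2 ratio was -0.04 and -0.57 for Sycp3, but -0.28 and -0.36 for Stag3. All 7 had a negative log2 fold change, and 3 of them fell, beside 3.52% of all genes tested. These were Stag3, a meiotic cohesin subunit (-0.42, limma adjusted p = 0.0063), Hspa2, a chaperone of germ cells (-0.31, adjusted p = 0.030) and Tex15 (-0.24, adjusted p = 0.034). Stag3 stayed called with any 1 pair left out, whereas Hspa2 had adjusted p of 0.061 to 0.13 when pair 1, 2, 3 or 5 was left out, and Tex15 had 0.083 to 0.14 when pair 2, 3 or 5 was. The part of this shift in the Aldh1a2 difference was not tested. In whole testis, fewer cells of a type and less RNA per cell cannot be told apart. The 8 tested markers listed for spermatogonia, the earlier germ cells, summed to 3038 to 3211 in SCARKO pools and 2739 to 3057 in control pools. Of these 8 genes, 0 passed the test (2 at an unadjusted p under 0.05). Bright markers weigh most here too, Dazl first, with means of 1191 in SCARKO pools and 1146 in control pools. How much of this sum came from spermatogonia alone was not tested.

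**Figure D2:**
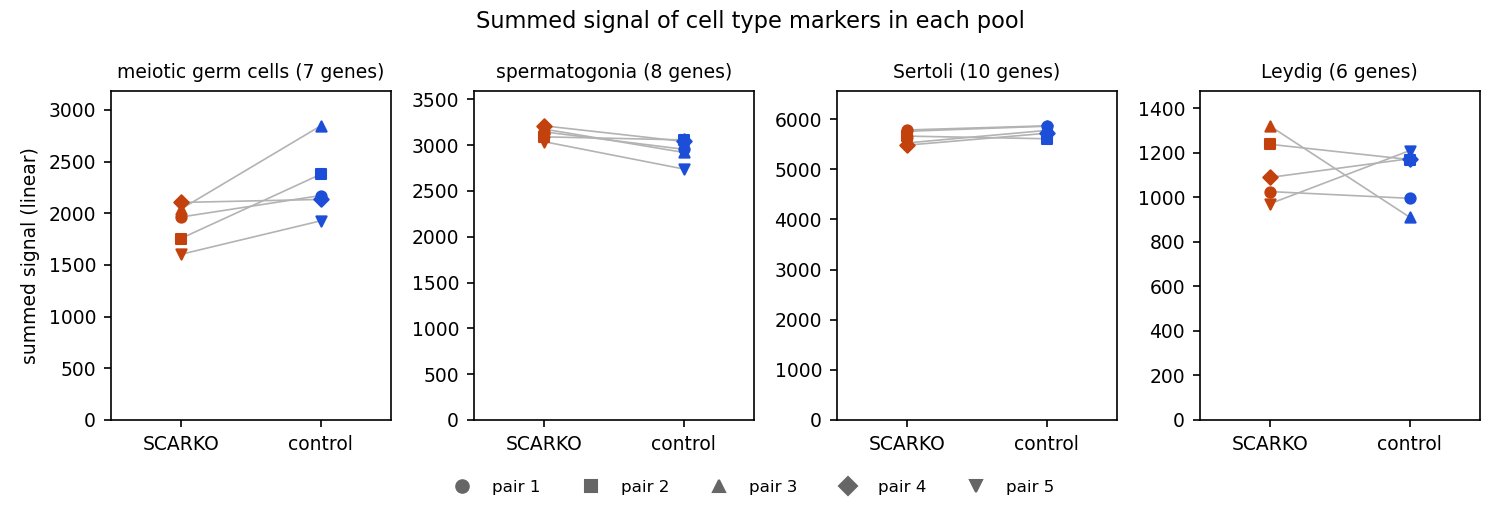
Summed linear signal of the tested markers of 4 testicular cell types in each SCARKO and control pool, with lines joining littermate pairs and vertical axes from 0. The sum of 7 meiotic markers lay lower in SCARKO in all 5 pairs, and the sum of 8 spermatogonial markers lay higher in SCARKO in all 5 pairs.

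Aldh1a7 encodes a cytosolic aldehyde dehydrogenase that is a close relative of the retinal dehydrogenase ALDH1A1. Whether ALDH1A7 acts on retinal was not measured here. The genes are neighbours on chromosome 19, with no other protein-coding gene between them. The Aldh1a7 signal in SCARKO pools of pairs 1 to 5 was 38.1, 72.8, 56.1, 87.3 and 54.5, against 87.3, 70.0, 85.3, 114.5 and 80.2 in the control pools. It was lower in SCARKO in 4 of 5 pairs, and pair 2 went slightly the other way. On the log2 scale the fold change was -0.54 (SE 0.14, 95% CI -0.84 to -0.24, limma adjusted p = 0.046). Pair 1 had the widest difference, with a log2 ratio of -1.20, against -0.60, -0.39 and -0.56 in pairs 3, 4 and 5 and 0.06 in pair 2. Without pair 1 the log2 fold change was -0.37 (adjusted p = 0.11). The call also ended without pair 3, 4 or 5 (adjusted p = 0.14, 0.085 and 0.12) and without the pair as a block (0.16), and was 0.0092 without pair 2.

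Aldh1a1 encodes the retinal dehydrogenase RALDH1, which mouse Sertoli cells express. Its signal in SCARKO pools of pairs 1 to 5 was 1522.9, 1626.6, 1479.3, 1227.3 and 1382.9, against 1322.5, 1478.2, 1313.4, 1293.7 and 1217.8 in the control pools. It was higher in SCARKO in pairs 1, 2, 3 and 5 and lower in pair 4. The log2 fold change was 0.12 (SE 0.04, 95% CI 0.03 to 0.22) and did not pass, at a limma adjusted p of 0.13. The call depended on pair 4: without it the log2 fold change was 0.17 with an adjusted p of 0.030. Over all genes tested, 3.52% fell and 2.17% rose, and 2833 of the 13576 probe sets had an unadjusted limma p under 0.05. Of the 10 Sertoli markers tested, 1 fell, 2 rose and 7 did not pass, and 5 of the 10 had an unadjusted p under 0.05. The median log2 fold change of 0.00 thus joins changes in both directions. None was at 0 signal. Their summed signal was 5481 to 5784 in SCARKO pools and 5609 to 5868 in control pools, lower in SCARKO in 4 of 5 pairs. The tight junction gene Cldn11 fell (-0.68, adjusted p = 0.00029), while Fshr, the FSH receptor gene (0.42, adjusted p = 0.026), and Kitl, the stem cell factor gene (0.24, adjusted p = 0.015), rose. Fshr was not called when pair 1, 2 or 4 was left out (adjusted p = 0.090, 0.068 and 0.088), nor Kitl when pair 1 or 3 was (0.052 and 0.070). Amh, near the filter, was lower in SCARKO in all 5 pairs (-0.71, limma adjusted p = 0.065) and did not pass. The part of these changes in the Aldh1a1 difference was not tested. Aldh1a1 and Aldh1a7 had differences of opposite sign in pairs 1, 3 and 5 and of the same sign in pairs 2 and 4. The difference between their fold changes was not tested.

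The windows before the start of Aldh1a1 and Aldh1a7 are shown because the genes are neighbouring relatives. RefSeq (GRCm38.p6) holds a pair of starts for Aldh1a1. The 250 bases before its downstream start, at chr19:20601718-20601967 on the + strand, and the 250 bases before the start of Aldh1a7, at chr19:20727557-20727806 on the - strand, are written 5′ to 3′ along each gene, with the longest run shared at the same distance from the start in capitals.
Aldh1a1: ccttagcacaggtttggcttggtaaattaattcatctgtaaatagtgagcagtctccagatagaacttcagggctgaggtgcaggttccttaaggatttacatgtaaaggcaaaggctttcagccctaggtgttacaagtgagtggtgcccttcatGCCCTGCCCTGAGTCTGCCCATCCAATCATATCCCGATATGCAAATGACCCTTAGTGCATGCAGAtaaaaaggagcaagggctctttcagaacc
Aldh1a7: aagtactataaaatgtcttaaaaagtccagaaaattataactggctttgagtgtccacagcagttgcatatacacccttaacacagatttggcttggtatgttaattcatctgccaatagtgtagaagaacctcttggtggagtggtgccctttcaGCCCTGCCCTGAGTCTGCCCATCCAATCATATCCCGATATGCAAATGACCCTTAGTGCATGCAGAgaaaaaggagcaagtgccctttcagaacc
Aligned at their starts without gaps, the windows had the same base at 94.0% of the last 100 positions and at 51.6% of all 250. The longest shared run was 65 bases, from 94 to 30 bases before the start. The window before the upstream start of Aldh1a1 matched that of Aldh1a7 at 25.2% of positions, with a longest run of 6 bases. Close relatives can share probe signal. These windows lie before the starts, so their likeness does not show whether that happened, and the probe sequences were not used here.

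**Figure D3:**
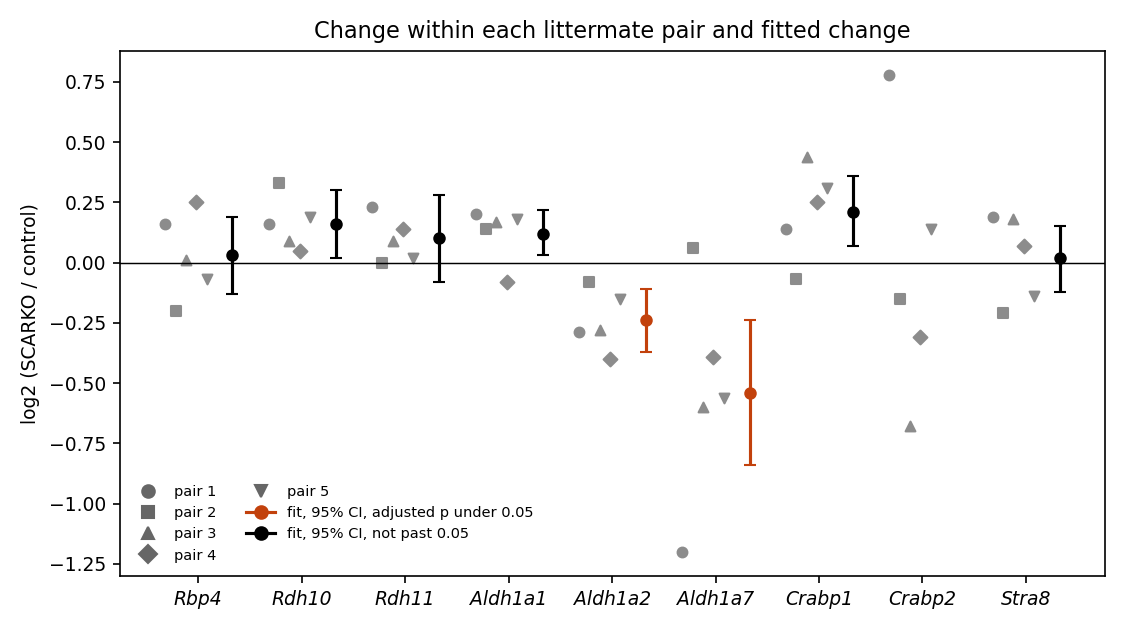
Log2 ratio of SCARKO over control signal within each littermate pair (grey, a marker shape for each pair) and the fitted log2 fold change with its 95% confidence interval for the 8 genes tested. The intervals are not adjusted. Those of Aldh1a2 (-0.37 to -0.11) and Aldh1a7 (-0.84 to -0.24) lie under 0, and both genes passed the adjusted threshold. The intervals of Aldh1a1, Rdh10 and Crabp1 lie above 0, but these genes did not pass it. Crabp2 has no fitted value because it lay under the filter.

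Upstream of the retinal dehydrogenases, none of the 3 genes passed. Rdh10 encodes the retinol dehydrogenase that makes retinal from retinol and is needed for spermatogonial differentiation in juvenile mice. Its signal in SCARKO pools of pairs 1 to 5 was 122.9, 133.4, 116.2, 103.7 and 107.1, against 109.7, 106.4, 109.4, 100.3 and 93.9 in the control pools. Every SCARKO pool lay above its littermate control, by a log2 ratio of 0.05 in pair 4 up to 0.33 in pair 2. The fitted log2 fold change was 0.16 (SE 0.06, 95% CI 0.02 to 0.30, limma adjusted p = 0.17). The same sign in all 5 pairs was shown by 19.7% of all genes tested, and by Aldh1a2 and Rdh10 among the 8.

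Rdh11 encodes a microsomal enzyme that works on retinal and retinol. The brighter of its probe sets ranged from 49.2 to 53.9 in SCARKO pools and from 45.5 to 49.2 in control pools, with a log2 fold change of 0.10 (95% CI -0.08 to 0.28, adjusted p = 0.54). Its other probe set gave 0.05 (95% CI -0.16 to 0.25, adjusted p = 0.83). Rbp4, the plasma carrier of retinol, ranged from 111.9 to 156.1 in SCARKO pools and from 117.6 to 146.9 in control pools. It was higher in SCARKO in 3 of 5 pairs, and its log2 fold change was 0.03 (95% CI -0.13 to 0.19, adjusted p = 0.85).

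Neither cellular carrier gene among the 9 had a called difference. CRABP1 binds retinoic acid in the cytosol and is found in spermatogonia of the mouse. Its signal in SCARKO pools of pairs 1 to 5 was 344.2, 318.1, 381.4, 346.5 and 366.9, against 312.8, 333.9, 281.5, 291.0 and 296.7 in the control pools. It was higher in SCARKO in 4 of 5 pairs and lower in pair 2. The log2 fold change of 0.21 (SE 0.07, 95% CI 0.07 to 0.36) did not pass, at a limma adjusted p of 0.093. Without pair 2 it was 0.28 with an adjusted p of 0.019, and the count of the 8 genes that passed was then 3. The summed spermatogonial markers given above were also higher in SCARKO in all 5 pairs, and their part in the Crabp1 difference was not tested. Crabp2, whose protein hands retinoic acid to its nuclear receptors, had signals of 6.3 to 10.5 in SCARKO pools and 6.1 to 11.7 in control pools, under the filter, so no fold change is given.

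Stra8 is induced in germ cells by retinoic acid and is required for meiotic entry. Its signal in SCARKO pools of pairs 1 to 5 was 509.8, 522.5, 609.4, 491.2 and 391.9, against 446.9, 604.9, 537.7, 469.0 and 432.4 in the control pools. The groups covered nearly the same range, with 3 pairs higher and 2 pairs lower in SCARKO. The log2 fold change was 0.02 (SE 0.06, adjusted p = 0.91), and its 95% CI of -0.12 to 0.15 bounds the difference on either side. Its sign turned without pair 1 (-0.03) or pair 3 (-0.02).

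The 250 bases before the start of Stra8, at chr6:34920698-34920947 on the + strand (RefSeq, GRCm38.p6), are shown as those of the pathway's target gene, 5′ to 3′, with the half-site AGGTCA of nuclear receptors of the retinoid class in capitals.
Stra8: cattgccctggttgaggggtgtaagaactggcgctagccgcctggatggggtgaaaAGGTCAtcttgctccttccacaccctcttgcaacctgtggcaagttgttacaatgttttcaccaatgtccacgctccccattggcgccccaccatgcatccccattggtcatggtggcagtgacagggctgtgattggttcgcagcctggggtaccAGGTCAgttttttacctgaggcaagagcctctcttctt
The half-site occurred at 194 and at 38 bases before the start, both times in the direction of the gene. On either strand it was found in 2 of the 10 windows that RefSeq gave for 7 of the 9 genes, those of Stra8 and of the start of Rdh11 at which it lay 147 bases upstream, and in 14.0% of all 32851 windows of this length. The variant AGTTCA was found in 0 of the 10 windows and in 11.8% of all. Direct repeats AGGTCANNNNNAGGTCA and AGGTCANNAGGTCA, each of which contains the half-site, were in 0 of the 10 and in 0.00913% of all. These are matches of letters within the window and say nothing of binding.

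Other genes of the pathway were taken from lists of 72 genes, of which 60 were named alone by a probe set and 35 were bright enough to test. Of the 35, 1 fell, 4 rose and 30 did not pass, with a median log2 fold change of 0.04, beside 0.015 over all genes tested, of which 3.52% fell and 2.17% rose. Fabp5 was the gene that fell, and Lpl, Dhrs7, Mycn and Bhlhe40 rose. No list is set against other genes by a test.

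Among retinoid carriers and receptors, 1 of 5 tested genes fell and none rose. Fabp5 encodes a fatty acid binding protein that also carries retinoic acid, to a receptor other than the classical ones. Its signal in SCARKO pools of pairs 1 to 5 was 251.8, 345.8, 236.2, 289.5 and 211.9, against 347.0, 341.0, 394.0, 336.5 and 362.8 in the control pools. The SCARKO pools were low in pairs 1, 3, 4 and 5, while the pool of pair 2 was level with its control. The log2 fold change was -0.43 (SE 0.10, limma adjusted p = 0.030), and the other probe set gave -0.37 (adjusted p = 0.098). The call ended without pair 1, 3 or 5 (adjusted p = 0.088, 0.13 and 0.10). None of the 4 tested receptor genes passed. Of those with the smallest p, Rxra had a log2 fold change of 0.23 (limma adjusted p = 0.15), Rarg 0.12 (0.47) and Rxrb -0.09 (0.61). The dimmer tested probe sets gave 0.08 for Rxra (0.71) and 0.02 for Rarg (0.95). Signals of Rarb, Rxrg and Ppard lay under the filter.

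Of 7 tested retinol and retinal oxidoreductases, 1 rose and none fell. Dhrs7, a short-chain dehydrogenase gene, averaged 195 ± 19.8 in SCARKO pools and 163 ± 17.6 in control pools (SD, n = 5) and was higher in SCARKO in all 5 pairs. Its log2 fold change was 0.26 (SE 0.06, limma adjusted p = 0.039). The call ended without pair 1, 2, 3 or 5 (adjusted p = 0.13, 0.061, 0.13 and 0.11) and without the pair as a block (0.16). Log2 fold changes of the next genes were -0.12 for Adh5 (adjusted p = 0.13), 0.16 for Rdh14 (0.18) and 0.19 for Dhrs4 (0.34), whose other probe set gave 0.10 (0.56). The retinal dehydrogenase gene Aldh1a3 lay under the filter on all 3 of its probe sets, and so did Cyp26a1, which encodes a retinoic acid hydroxylase, whose signal reached at most 27.8 on any array.

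Of 5 tested genes of uptake, transport and storage, 1 rose and none fell. Lpl, the lipoprotein lipase gene, whose enzyme releases fatty acids and can release retinol from its esters, had signals of 263.2, 256.7, 243.0, 223.5 and 260.7 in SCARKO pools, against 194.3, 206.3, 139.3, 156.2 and 184.7 in control pools. The groups did not overlap. Its log2 fold change was 0.51 (SE 0.07, limma adjusted p = 0.0020), and the other probe set gave 0.33 (adjusted p = 0.10). Stra6, the gene of the receptor that takes up retinol from RBP4, had 0.19 (adjusted p = 0.27), the retinol saturase gene Retsat -0.20 (0.27) and the scavenger receptor gene Scarb1 -0.06 (0.62), with -0.13 (0.50) and -0.08 (0.46) on the other probe sets of Scarb1. Lrat, the gene of the enzyme that stores retinol as esters, was at 0.7 to 3.4 in SCARKO pools and 1.4 to 3.9 in control pools, under the filter.

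**Figure D4:**
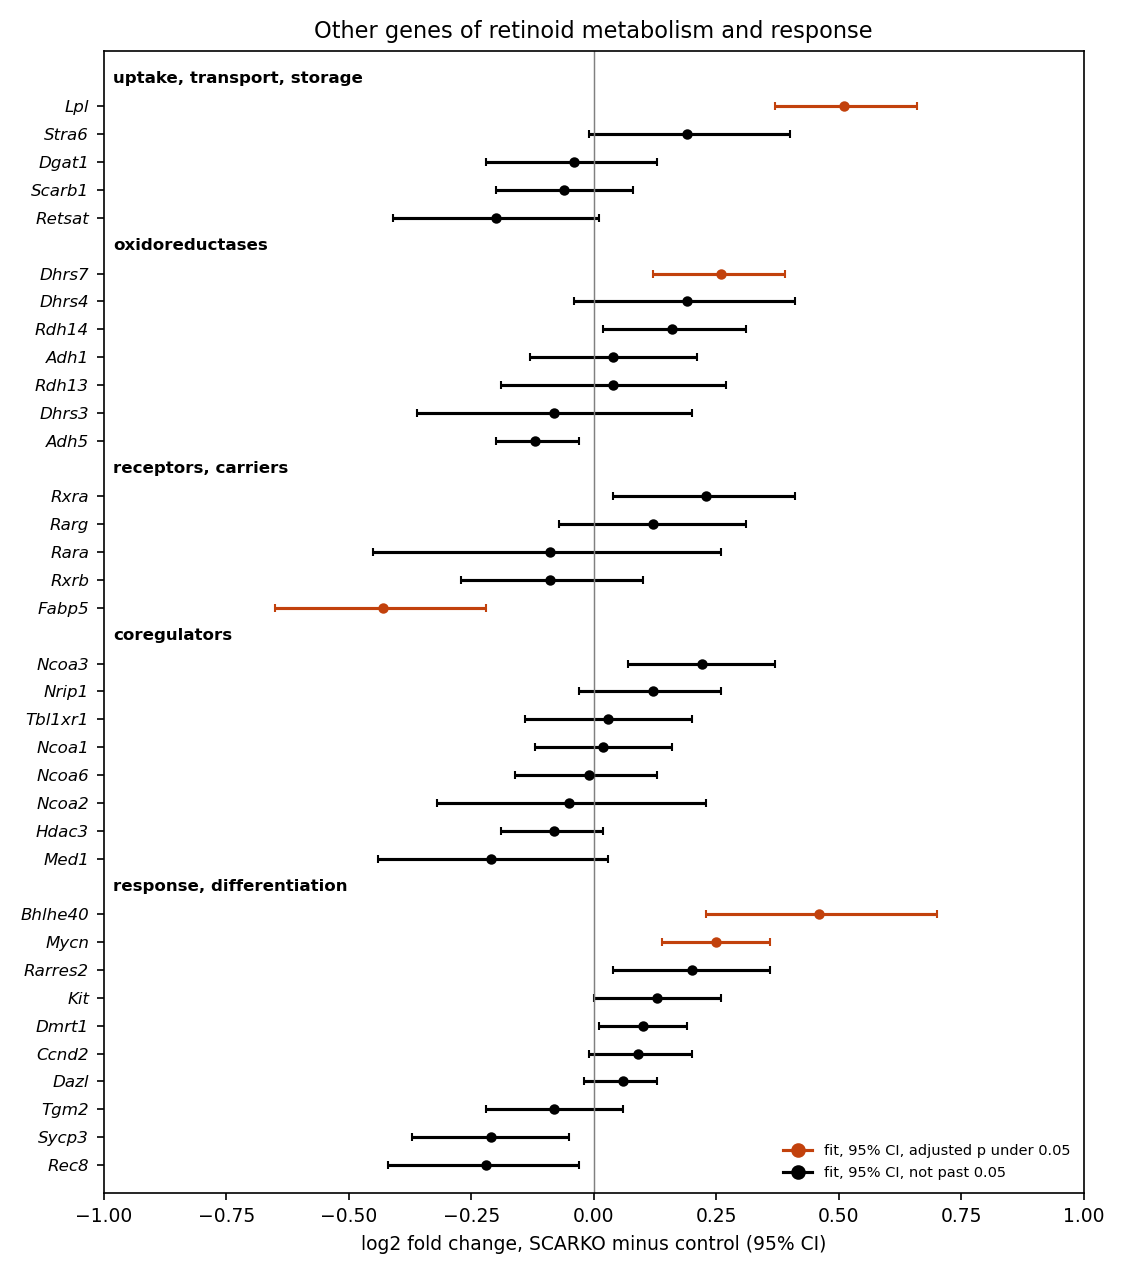
Fitted log2 fold change, SCARKO minus control, with 95% confidence interval for the 35 other tested genes of the retinoid lists, grouped by role; genes past the adjusted threshold are in orange. Fabp5 (-0.43) lies lowest, and Lpl (0.51), Bhlhe40 (0.46), Dhrs7 (0.26) and Mycn (0.25) are the genes that rose.

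Of 10 tested genes reported to respond to retinoic acid or to act as germ cells differentiate and enter meiosis, 2 rose and none fell. Bhlhe40, a helix-loop-helix repressor gene once named Stra13 for its induction by retinoic acid, had signals of 57.9, 44.9, 46.8, 43.2 and 43.6 in SCARKO pools, against 38.7, 38.5, 39.2, 24.4 and 32.1 in control pools. The groups did not overlap, and the log2 fold change was 0.46 (SE 0.11, limma adjusted p = 0.030). That call ended without pair 1, 3, 4 or 5 (adjusted p = 0.099, 0.056, 0.090 and 0.084). The transcription factor gene Mycn averaged 272 ± 12.7 in SCARKO pools and 228 ± 5.62 in control pools (SD, n = 5), again without overlap, and differed by 0.25 on the log2 scale (SE 0.05, adjusted p = 0.014). Its call ended without pair 3 or 5 (adjusted p = 0.060 and 0.065), and its other tested probe set gave 0.12 (adjusted p = 0.65).

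The meiotic genes of this list had negative differences that did not pass, with a log2 fold change of -0.21 for Sycp3, a synaptonemal complex gene (adjusted p = 0.12), and -0.22 for Rec8, a meiotic cohesin gene that retinoic acid induces (0.18). Rarres2, a gene named for its response to retinoids in skin, had 0.20 (0.14), and 0.23 (0.13) on its other tested probe set. Of 8 receptor coregulator genes 0 passed, with 1 at an unadjusted p under 0.05: Ncoa3 had 0.22 (limma adjusted p = 0.099), Med1 -0.21 (0.31) and Nrip1 0.12 (0.34). The other probe set of Nrip1 gave 0.30 (0.058) and was higher in SCARKO in all 5 pairs, and the other tested probe sets of Med1 gave -0.16 (0.20) and -0.44 (0.10).

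The calls of the aldehyde dehydrogenase genes changed with the setting more than their values did. Over the 11 alternatives that kept the groups of the titles, the log2 fold change of Aldh1a2 lay between -0.28 and -0.20 and passed in 3, and that of Aldh1a7 lay between -0.69 and -0.37 and also passed in 3. Aldh1a1 passed in 1 of the 11, at 0.10 to 0.17, and Crabp1 in 1, at 0.16 to 0.28.

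**Figure D5:**
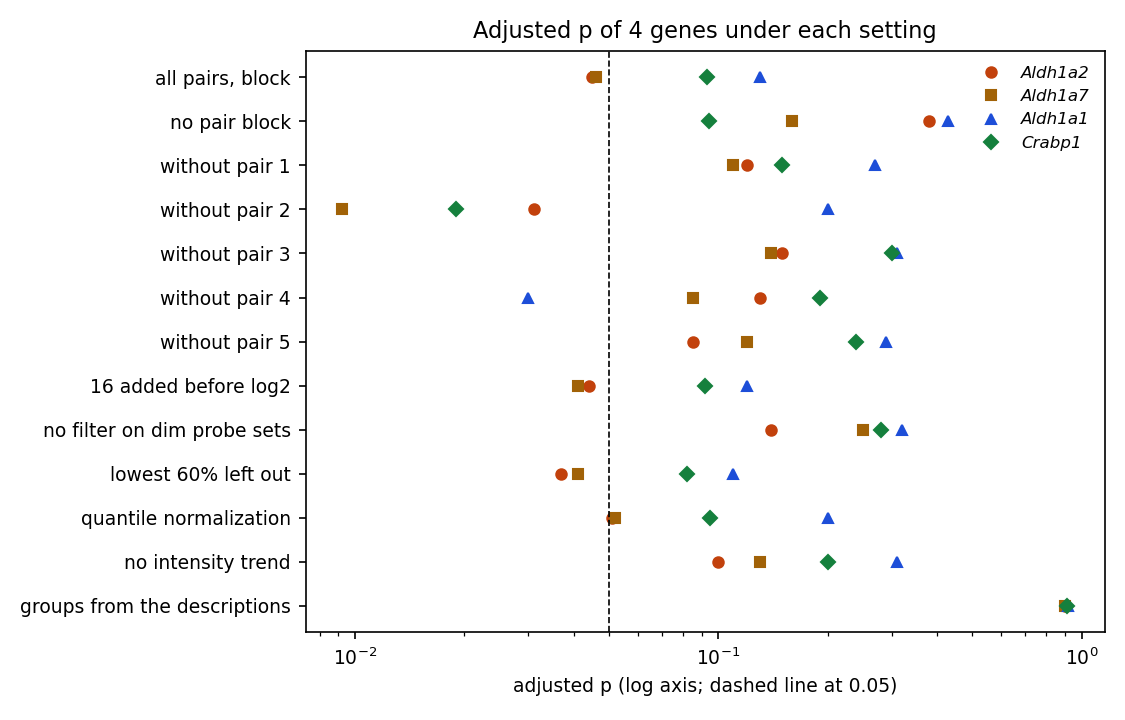
Adjusted p (log axis, dashed line at 0.05) of the 4 genes that passed under at least 1 setting, for the paired fit of all pairs at the top and each alternative under it. Aldh1a2 and Aldh1a7 sit just left of the line with all pairs (0.045 and 0.046) and right of it without pair 1, 3, 4 or 5, while Aldh1a1 passes only without pair 4 and Crabp1 only without pair 2 among the settings shown.

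Genes whose profile over the 10 arrays was most like that of a retinoid gene were found by the mean absolute difference of centred log2 values. For Stra8 they were Gtpbp8, Prim1 and Rrm2, at 0.068, 0.072 and 0.077, against a median of 0.194 over the 7972 genes compared. For Aldh1a2 they were Clip4, Ttc30a1 and Id2, at 0.075, 0.097 and 0.099, against a median of 0.236. For Aldh1a1 they were Pycrl, Atp5j and Dpm2, at 0.046, 0.052 and 0.052, against a median of 0.157. Of these 9 genes, Id2 passed the test between groups, with a log2 fold change of -0.22 (limma adjusted p = 0.029), a call that ended without any 1 of the pairs (0.056 to 0.11). The measure takes in array and litter differences as well as the group.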

How the data were processed

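Signal intensities as deposited by the authors, on a linear scale with 1 value per probe set, were used for 10 arrays. The submitters' processing notes name MAS5 for 8 arrays, without a version or settings, and no tool for the pair numbered 5. After trimming 2% of values at each end the mean was 100.03 on every array. Intensities carry no counts, so precision is limited by the 5 arrays per group. The p-values of the paired fit rest on how the difference between SCARKO and control varied over the 5 littermate pairs.

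Groups and pairs came from the titles, and littermate pairing from the labels' protocols. Same-numbered pools deviated together, with correlations of 0.275, 0.186, 0.19, 0.109 and 0.386 for pairs 1 to 5, while the closest pool of a different number correlated at -0.008, 0.078, 0.109, 0.109 and 0.01. Pair 4 therefore did not stand out as paired. Probe sets were named from GEO's platform table, with symbols brought to GRCm38.p6 through gene identifiers.

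Signals were floored at 1 and put on the log2 scale. The dimmest 40% of 22626 probe sets by mean log2 were left out, which kept 13576 at a mean log2 of at least 4.27. All of these were fitted together in limma 3.58.1 (R 4.3.3), with terms for pair and group, variances moderated with an intensity trend, and two-sided p-values adjusted by Benjamini-Hochberg across the 13576. The brightest kept probe set stood for a gene. The procedure was tested on simulated data. The genes and lists were chosen with earlier results of these data known. Named were all 9 genes, Rhox5 and the genes most alike in profile. Of each pathway list, every called gene and up to 3 others with the smallest p were named. Called meiotic and Sertoli markers, Amh near the filter, and genes under the filter were named to complete their lists. The targeted gene is not reported here.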

Additional observations from a re-analysis of the deposited data

Results flagged for a closer look

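Groups of 5 pools were examined for 36 of the named genes, Crabp2 and the second probe set of Rdh11. Among these 76 groups, 3 held a pool that stood apart from the other 4 by Dixon's ratio, and chance flags about 1 in 20. The Rdh11 signal of the SCARKO pool of pair 1 was 53.9, against 49.2 to 50.2 in the other SCARKO pools. The Bhlhe40 signal of the SCARKO pool of pair 1 was 57.9, against 43.2 to 46.8 in the others. The Rdh14 signal of the control pool of pair 2 was 134.1, against 115.3 to 119.4 in the other control pools.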

How the results depend on the processing

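The pairs were littermate pools, and without the pair as a block (no replicate block) 404 probe sets were called in place of 704, 0 in place of 2 of the 8 retinoid genes tested (2 at an unadjusted p under 0.05) and 3 in place of 5 genes of the pathway lists. Leaving out 1 pair at a time gave 304 to 743 called probe sets, 0 to 3 of the 8 genes and 1 to 4 genes of the lists. The lowest counts of probe sets came without pair 3 (304), 5 (344) and 1 (422). Without the filter on dim probe sets, where more probe sets are tested, 38 probe sets, 0 of the 8 genes and 0 of the lists were called by limma (5 and 12 at an unadjusted p under 0.05). Without the intensity trend the counts were 321, 0 (4 unadjusted) and 1, and after quantile normalization 0 of the 8 genes passed (5 unadjusted; adjusted p = 0.051 for Aldh1a2 and 0.052 for Aldh1a7). Among all 13576 probe sets, an unadjusted limma p under 0.05 was held by 2103 without the block, 2588 without the trend and 2789 after quantile normalization. Without the filter it was held by 3339 of 22626. With 16 added before log2, or with the lowest 60% left out, Aldh1a2 and Aldh1a7 stayed called. The call of Lpl ended without the filter (adjusted p = 0.070) and held in the other 10 alternatives with the titles' groups. The sign of Rbp4 turned without pair 1 (-0.0012) or 4 (-0.02) and that of Stra8 without pair 1 (-0.03) or 3 (-0.02), none of them past the threshold. The cause of these changes was not tested.

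The descriptions exchange SCARKO and control in every pair except that on which both labels agree. By the titles Rhox5 was lower in SCARKO in every pair, so the exchange sets that pair against the others. With groups from the descriptions, limma called 0 probe sets (611 at an unadjusted p under 0.05), 0 of the 8 genes (0 unadjusted) and 0 of the lists (3 unadjusted). The signs of the 36 genes refitted turned, except that of Scarb1. The refit reuses the same pair ratios with exchanged signs, so it is no separate test of the directions. Log2 fold changes were then -0.05 for Aldh1a1, 0.18 for Aldh1a2, 0.32 for Aldh1a7, -0.09 for Crabp1, -0.06 for Rbp4, -0.09 for Rdh10, -0.09 for Rdh11, -0.07 for Stra8, 2.39 for Rhox5, 0.32 for Stag3, 0.19 for Hspa2, 0.11 for Tex15, 0.10 for Id2, 0.33 for Cldn11, -0.33 for Fshr and -0.15 for Kitl. In the lists they were -0.32 for Lpl, 0.02 for Retsat, -0.05 for Stra6, -0.15 for Dhrs7, 0.04 for Adh5, -0.02 for Rdh14, -0.23 for Dhrs4, 0.12 for Fabp5, -0.02 for Rxra, -0.03 for Rarg, 0.11 for Rxrb, -0.11 for Ncoa3, 0.04 for Med1, -0.07 for Nrip1, -0.10 for Mycn, -0.29 for Bhlhe40, 0.19 for Sycp3, -0.19 for Rarres2 and 0.09 for Rec8.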
